A study of Homo sapiens with 12 samples.

Results

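The RNA described here lay past the annotated ends of COX6C, SQSTM1, C6orf62 and LY6E, on the strand of each gene, and on the strand opposite RGS12. It was chosen from a table of 5254113 stranded regions (rows) of the human genome, with read counts, as the rows whose 5′ edge lies within 20 kb past the end of one of the 4 genes, and the minus-strand row chr4:3342934-3439912 opposite RGS12. This rule took 31 rows: 1 past COX6C, 15 past SQSTM1, 5 past C6orf62, 9 past LY6E and the 1 opposite RGS12. Of the 31 rows, 28 had at least 1 read and 14 passed the filter on low counts, and together they held 18600 reads. The 5 loci had been picked from these same libraries because their RNA was higher after an MPS1 inhibitor in both genotypes and little or not higher after interferon. Their changes under those 2 treatments are therefore given as a description, with no test.

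The libraries held RNA bound by J2, an antibody to double-stranded RNA, from NCI-H1944, an established line of human lung adenocarcinoma. The IFNAR1sg cells carried a knockout of IFNAR1, a subunit of the type I interferon receptor, and the SCR cells were wild type for it. Each genotype was given BAY-1217389, an inhibitor of MPS1 (MPS1i), at 100 nM, or DMSO, for 48 h and was then cultured for 24 h after washout, and a further arm (IFNb) had recombinant interferon beta at 5 ng/ml. MPS1 is a kinase of the spindle checkpoint, and cells that divide while it is blocked missegregate chromosomes. The groups were IFNAR1sg MPS1i, IFNAR1sg IFNb, IFNAR1sg DMSO, SCR MPS1i, SCR IFNb and SCR DMSO, with 2 libraries each, 12 in all, and the question put by the study was which transcripts that form double-stranded RNA after the pulse depend on type I interferon. Input RNA was not analysed here, so the amount of an RNA and its double-stranded share cannot be told apart, and in bulk lysates fewer cells making an RNA and less RNA per cell cannot be told apart either.

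COX6C encodes a nuclear-encoded subunit of cytochrome c oxidase, the last enzyme of the respiratory chain. SQSTM1 encodes p62, a receptor that carries ubiquitinated cargo into autophagosomes. LY6E encodes a GPI-anchored surface protein and is itself an interferon-stimulated gene. RGS12 encodes a GTPase-activating protein for G protein alpha subunits. C6orf62 is an open reading frame without a well established function. In the GENCODE release 29 annotation of hg38, COX6C (ENSG00000164919.10) is at chr8:99873200-99894062 on the minus strand and SQSTM1 (ENSG00000161011.19) is at chr5:179806398-179838078 on the plus strand. C6orf62 (ENSG00000112308.12) is at chr6:24704861-24720836 on the minus strand and LY6E (ENSG00000160932.10) is at chr8:143017982-143023832 on the plus strand. RGS12 (ENSG00000159788.19) is at chr4:3293028-3439913 on the plus strand, so its antisense row begins 1 base inside the end of the gene and runs back through it for 97.0 kb.

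RNA polymerase II normally transcribes beyond the poly(A) signal of a gene. The nascent RNA is cleaved about that signal, and the polymerase is then released by a process that needs the cleavage factors and the exonuclease XRN2. RNA found far past a gene end, called readthrough or downstream-of-gene RNA, is known from osmotic, heat and viral stress in human cells. Antisense RNA is transcribed from the strand opposite a gene. RNA from both strands of one locus can pair, and inverted Alu repeats within one RNA can fold, and either gives double-stranded RNA.

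Annotated transcript ends of SQSTM1, C6orf62 and RGS12 are shown, because the poly(A) signal in them is where cleavage is normally directed. Each is a stretch of 30 bases at or near the end of a GENCODE release 29 transcript on GRCh38, in the RNA sense from 5′ to 3′, with the poly(A) signal in capitals.
SQSTM1, chr5:179838049-179838078, plus strand: gcaAATAAAtgccttccacctcaccgcaaa
SQSTM1, an earlier transcript end, chr5:179837225-179837254, plus strand: ctaATTAAAtggcatcagcactttaaccaa
C6orf62, chr6:24704880-24704909, minus strand: ctaAATAAAataggtgaaagttccctgact
RGS12, chr4:3439882-3439911, plus strand: tgctgcccAATAAAgcatttctgaggaccc
RGS12, an earlier transcript end, chr4:3432221-3432250, plus strand: tttagaaaatAATAAAagtattttaatcta
The 5 ends shown carry AATAAA or ATTAAA, letters that were searched on the RNA strand alone. No end of COX6C or LY6E is shown, so this does not cover every locus. The RGS12 ends are those of its sense transcripts, while the row studied there is antisense. In the last 60 bases of 19702 protein-coding gene ends, AATAAA was found in 60.5% and ATTAAA in 17.7%. The first SQSTM1 row starts 4 bp past the gene end and the COX6C row 112 bp past it. All 8 coding COX6C transcripts end at least 4666 bp before that gene end. For C6orf62 the first row starts 3955 bp past the end, and for LY6E the first starts 20 bp past it.

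Library totals ran from 3739443 to 7430687 reads. Both libraries of SCR IFNb differed from the remaining 10 in makeup. Their reads fell in 295367 and 296843 rows, against 566704 to 935974 rows in the others, and rows touching an exon held 49.6% and 47.9% of their reads, against 33.2% to 39.7%. Each result for IFNb in SCR rests on these libraries, and with both left out the MPS1i changes of the 5 loci were 1.43 to 4.43 (log2) in IFNAR1sg and 1.22 to 3.98 in SCR. IFNAR1 had 21 to 33 reads per IFNAR1sg library and 0 to 34 per SCR library, a log2 difference of -0.18 ± 0.38 (SE) in DMSO (edgeR quasi-likelihood test, adjusted p = 0.95). An edit that stops a protein need not lower its RNA, so this checks little. Of 20 interferon-stimulated genes, 20 gene bodies rose after IFNb in SCR, and 17 rose in IFNAR1sg, where 0.648% of all gene bodies did, although those cells are labelled as a knockout of the receptor. Of the epithelial markers KRT8 had 176939 reads with rows touching an exon counted and 2083 without them, while KRT19 and the lung factor NKX2-1 had 0 either way.

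COX6C had a single downstream row, chr8:99809368-99873088, which is 63.7 kb long and lies opposite introns and exons of VPS13B. It held 544 and 546 reads in IFNAR1sg MPS1i, 222 and 352 in SCR MPS1i, 75 and 71 in IFNAR1sg IFNb, 38 and 26 in SCR IFNb, 49 and 61 in IFNAR1sg DMSO, and 68 and 64 in SCR DMSO. As CPM, the counts divided by the library size and scaled with TMM factors that even out library composition, the row averaged 92.7 ± 4.73 in IFNAR1sg MPS1i and 72.3 ± 5.23 in SCR MPS1i (SD, n = 2). All 4 MPS1i libraries lay above the 8 others, which ranged between 9.72 and 14.1 CPM. The fitted log2 change after MPS1i was 3.17 ± 0.21 (SE) in IFNAR1sg and 2.61 ± 0.21 in SCR, or 9.02-fold and 6.10-fold. After IFNb it was 0.22 ± 0.23 in IFNAR1sg and 0.01 ± 0.25 in SCR, and the SCR value was -0.31 with no scaling factors and -0.34 with DESeq2's Wald test.

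SQSTM1 had 15 downstream rows, of which 13 had reads and 4 were tested. Their sum was 1187 and 1300 reads in IFNAR1sg MPS1i, 600 and 925 in SCR MPS1i, 207 and 171 in IFNAR1sg IFNb, 38 and 39 in SCR IFNb, 139 and 224 in IFNAR1sg DMSO, and 237 and 195 in SCR DMSO. It averaged 211 ± 2.25 CPM in IFNAR1sg MPS1i, 193 ± 10.1 in SCR MPS1i, 33.3 ± 3.38 in IFNAR1sg DMSO and 38.6 ± 1.22 in SCR DMSO. The MPS1i libraries did not overlap any other group. The log2 change after MPS1i was 2.66 ± 0.16 in IFNAR1sg and 2.32 ± 0.16 in SCR, or 6.32-fold and 4.98-fold. After IFNb it was -0.11 ± 0.17 in IFNAR1sg and -1.42 ± 0.20 in SCR, where the 2 libraries with 14.1 and 14.7 CPM lay below every other library. With a window of 50 kb in place of 20 kb the SCR value after IFNb was -0.02.

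C6orf62 had 5 downstream rows, all with reads. The 31.5-kb row chr6:24666931-24698443, which starts 6418 bp past the gene end and reaches 103 exon bases of the next coding gene on its strand, TDP2, held 5013 of their 5708 reads. The 5 rows together held 1264 and 1356 reads in IFNAR1sg MPS1i, 619 and 809 in SCR MPS1i, 280 and 213 in IFNAR1sg IFNb, 82 and 83 in SCR IFNb, 182 and 294 in IFNAR1sg DMSO, and 278 and 248 in SCR DMSO. They averaged 222 ± 0.879 CPM in IFNAR1sg MPS1i and 183 ± 11.7 in SCR MPS1i, above all 8 other libraries, whose values lay between 30.5 and 48.0 CPM. The log2 change after MPS1i was 2.35 ± 0.15 in IFNAR1sg and 1.95 ± 0.15 in SCR. In the 4 rows that touch no other gene of the strand it was 1.43 ± 0.28 in IFNAR1sg and 1.19 ± 0.29 in SCR, or 2.70-fold and 2.29-fold. After IFNb those 4 rows changed by 0.14 ± 0.30 in IFNAR1sg and -0.88 ± 0.39 in SCR.

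LY6E had 9 downstream rows, of which 8 had reads. Their sum was 447 and 588 reads in IFNAR1sg MPS1i, 318 and 434 in SCR MPS1i, 251 and 195 in IFNAR1sg IFNb, 96 and 116 in SCR IFNb, 83 and 147 in IFNAR1sg DMSO, and 112 and 157 in SCR DMSO. It averaged 87.6 ± 12.2 CPM in IFNAR1sg MPS1i, 96.0 ± 3.22 in SCR MPS1i, 36.4 ± 4.60 in IFNAR1sg IFNb, 39.7 ± 5.62 in SCR IFNb, 20.9 ± 3.51 in IFNAR1sg DMSO and 24.5 ± 8.30 in SCR DMSO. The IFNb libraries lay between the MPS1i and the DMSO libraries in both genotypes, with no overlap. The log2 change after MPS1i, over the 5 rows that touch no other gene of the strand, was 2.04 ± 0.21 in IFNAR1sg and 1.92 ± 0.21 in SCR, and after IFNb it was 0.77 ± 0.22 in IFNAR1sg and 0.57 ± 0.23 in SCR. The SCR value after IFNb was 0.25 with no scaling factors and 0.23 with DESeq2's Wald test, and it was 0.28 to 0.97 with 1 library left out at a time.

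The antisense row of RGS12 held 701 and 746 reads in IFNAR1sg MPS1i, 365 and 491 in SCR MPS1i, 52 and 40 in IFNAR1sg IFNb, 13 and 23 in SCR IFNb, 27 and 34 in IFNAR1sg DMSO, and 37 and 41 in SCR DMSO. It averaged 123 ± 1.18 CPM in IFNAR1sg MPS1i and 109 ± 4.79 in SCR MPS1i, while all 8 other libraries lay between 4.83 and 8.65 CPM. Its log2 change after MPS1i was 4.43 ± 0.24 in IFNAR1sg and 3.96 ± 0.23 in SCR, or 21.6-fold and 15.5-fold, the highest of the 5 loci over the 20-kb windows in both genotypes. After IFNb it was 0.40 ± 0.27 in IFNAR1sg and -0.06 ± 0.31 in SCR. The other minus-strand rows beside it held few reads: the 35 rows in the 20 kb before the 5′ edge of the row held at most 12 reads in a library, and the 47 rows wholly within the remaining 49.9 kb of RGS12 at most 5. The bases that these rows cover were not counted, so this does not show that the strand itself was empty. In the 10 kb beyond the gene start, the minus strand held 46 and 51 reads in IFNAR1sg MPS1i, 17 and 39 in SCR MPS1i, 6 and 8 in IFNAR1sg DMSO, and 3 and 11 in SCR DMSO. Reads on the strand opposite a gene made up 18.3% and 22.1% of the IFNAR1sg MPS1i libraries, 18.6% and 16.3% of IFNAR1sg IFNb and 15.4% and 15.3% of IFNAR1sg DMSO. They made up 19.2% and 21.8% of the SCR MPS1i libraries, 22.5% and 24.0% of SCR IFNb and 15.9% and 20.5% of SCR DMSO, so the MPS1i and DMSO libraries overlapped in SCR and the SCR IFNb libraries were the highest. The part of this in the row's change was not tested.

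**Figure D1:**
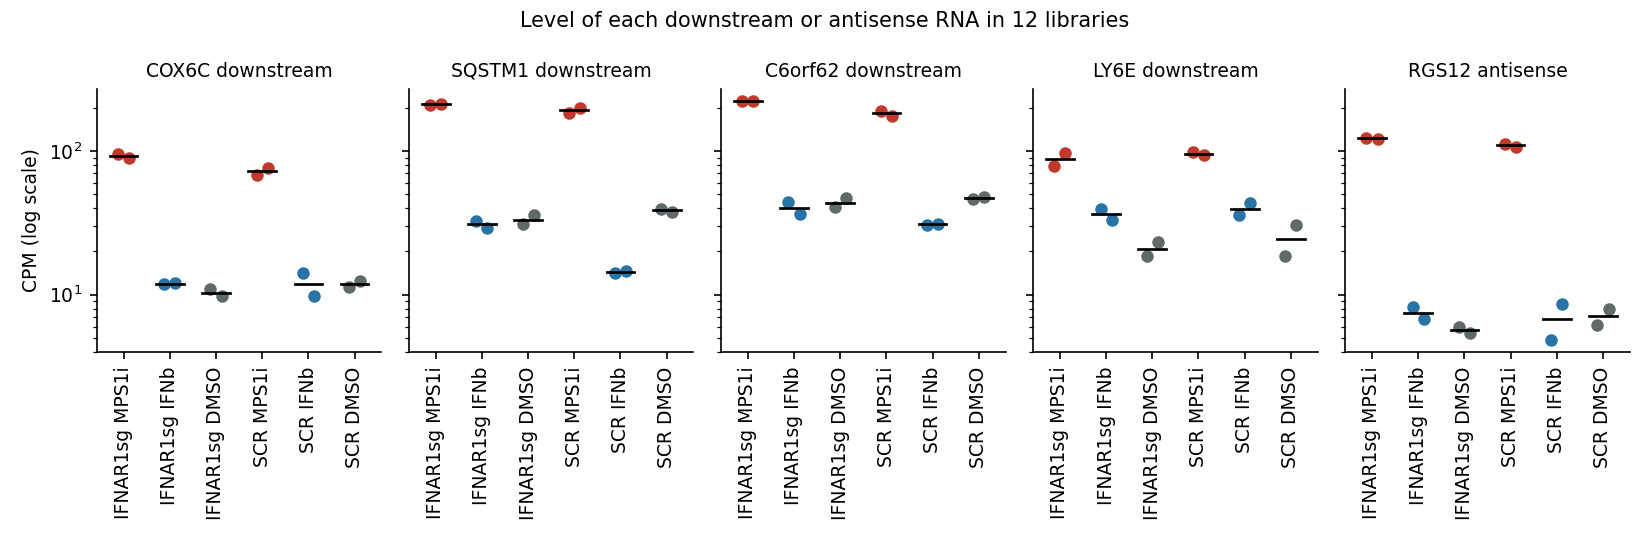
Level of the RNA past COX6C, SQSTM1, C6orf62 and LY6E and opposite RGS12 (CPM scaled with TMM factors, log axis) in each of the 12 libraries, by group. Each point is a library. At all 5 loci the 4 MPS1i libraries lie above the DMSO libraries, a rise for which the loci were picked. LY6E alone has its IFNb libraries above DMSO in both genotypes.

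Within the SQSTM1 window, the 4 tested rows had similar changes along the distance from the gene end. Rows starting 4, 2115, 2349 and 9333 bp past the end changed by 2.22, 2.75, 2.77 and 2.97 (log2) after MPS1i in IFNAR1sg and by 2.15, 2.25, 2.37 and 2.34 in SCR. Their density, in CPM per kb, was 22.1, 33.7, 31.4 and 1.64 in IFNAR1sg MPS1i and 4.83, 4.90, 4.56 and 0.200 in IFNAR1sg DMSO. The density was thus lower in the row that starts beyond 9 kb in both groups, while its change was not smaller. The first annotated gene past SQSTM1 on its strand, the 7SK pseudogene RN7SKP150, lies 7754 bp past the end.

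The LY6E rows did not change together. The first row, chr8:143023852-143030158, held 278 and 323 reads in IFNAR1sg MPS1i, 216 and 288 in SCR MPS1i, 41 and 33 in IFNAR1sg IFNb, 26 and 20 in SCR IFNb, 14 and 14 in IFNAR1sg DMSO, and 24 and 17 in SCR DMSO. Its log2 change after MPS1i was 4.27 ± 0.31 in IFNAR1sg and 4.13 ± 0.28 in SCR, and after IFNb it was 1.20 in IFNAR1sg and 1.22 in SCR. The row that starts 6969 bp past the end changed by 3.31 in IFNAR1sg and 3.34 in SCR after MPS1i. By contrast the 299-bp row that starts 14470 bp past the end held 95 and 177 reads in IFNAR1sg MPS1i, 50 and 68 in SCR MPS1i, 63 and 127 in IFNAR1sg DMSO, and 82 and 133 in SCR DMSO. Its log2 change after MPS1i was 0.41 ± 0.25 in IFNAR1sg and -0.38 ± 0.27 in SCR. After IFNb this row held 201 and 150 reads in IFNAR1sg and 54 and 84 in SCR, with log2 changes of 0.73 ± 0.25 and 0.40 ± 0.26. It held most of the LY6E reads in the DMSO and the IFNb libraries, so the LY6E sums in those libraries are mostly counts of this row. A window of 5 kb, which leaves this row out, gave 4.27 in IFNAR1sg and 4.13 in SCR for LY6E after MPS1i. The next gene on the strand, LINC02904, lies 15.4 kb past the end.

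Of the C6orf62 rows, the 31.5-kb row changed by 2.48 (log2) after MPS1i in IFNAR1sg and 2.08 in SCR, and after IFNb by -0.18 in IFNAR1sg and -0.56 in SCR. An unnamed gene on the same strand, ENSG00000272345, ends nearer to these rows than C6orf62 does, and the same 4 rows fall in its window. The rows could belong to either. TDP2, an enzyme that repairs topoisomerase-DNA adducts, was higher in its own gene body after MPS1i, by 0.83 ± 0.18 in IFNAR1sg (edgeR quasi-likelihood test, adjusted p = 3.9e-05) and 0.89 ± 0.19 in SCR (adjusted p = 4.9e-05).

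**Figure D2:**
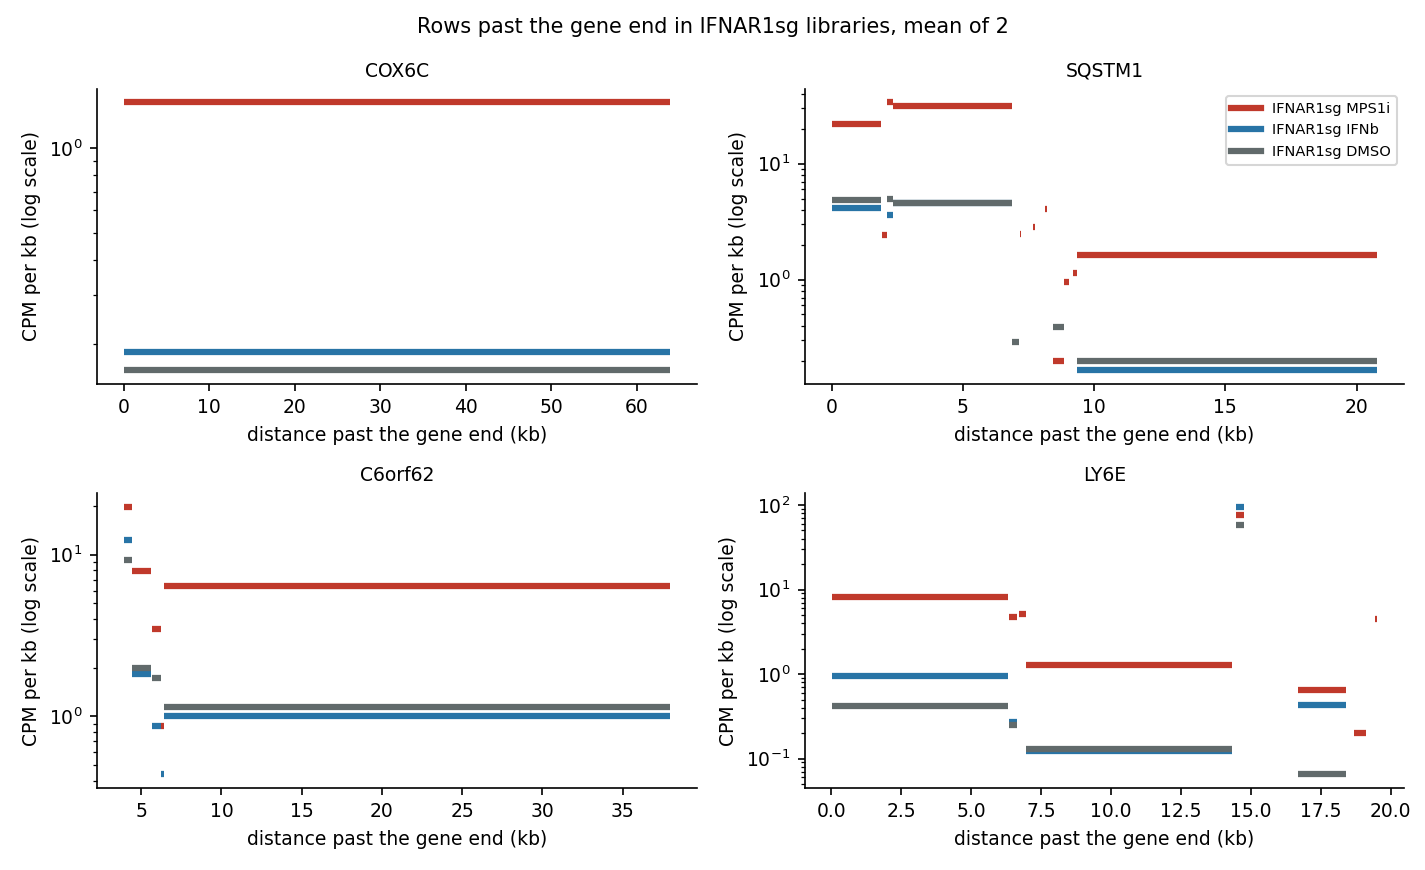
Density of each downstream row (mean CPM per kb of 2 IFNAR1sg libraries, log axis) against its distance past the gene end in kb, for MPS1i, IFNb and DMSO; each line spans 1 row, and rows with 0 reads in a group are not drawn. The MPS1i lines lie above the others in the long rows of all 4 genes, while in the short LY6E row near 14.5 kb the 3 treatments lie close together.

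At the edges of the rule, the nearest row outside the COX6C window starts 64031 bp past the gene end and held 3 reads, since the row inside covers the whole window. The nearest outside the SQSTM1 window starts at 21244 bp with 8 reads and the nearest outside the LY6E window at 21018 bp with 1 read. The last rows inside with reads were the 11.4-kb SQSTM1 row and a 79-bp LY6E row with 4 reads. A further LY6E row inside, of 148 bp at 19911 bp, had 0 reads. The nearest row outside the C6orf62 window starts at 38180 bp, within TDP2, and held 400 and 374 reads in IFNAR1sg MPS1i, 270 and 365 in SCR MPS1i, 207 and 287 in IFNAR1sg DMSO, and 297 and 264 in SCR DMSO.

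To place the 5 loci, the same downstream sum was made for every annotated gene. Windows of neighbouring genes can overlap, so the same row can be counted for several genes, as for C6orf62 and ENSG00000272345. The sums are thus not all separate units. Of 18751 sums tested with edgeR's quasi-likelihood test at an adjusted p under 0.05, 6682 (35.6%) were higher and 277 (1.48%) lower after MPS1i in IFNAR1sg, with a median log2 change of 0.67. In SCR 5172 (27.6%) were higher and 445 (2.37%) lower, with a median of 0.56. The place of the 5 loci among these sums describes the values that chose them, and nothing is read from it. A larger change than that of the RGS12 antisense row was found in 1.59% of sums in IFNAR1sg and 1.94% in SCR. In the same order the shares were 4.81% and 7.09% for COX6C, 7.84% and 9.65% for SQSTM1, 13.6% and 13.6% for LY6E, and 23.2% and 27.5% for the 4 C6orf62 rows.

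With the edgeR test kept and DESeq2's size factors over the filtered rows in place of TMM, 6263 sums were higher and 348 lower in IFNAR1sg, and 4823 were higher and 511 lower in SCR. With no scaling factors 5121 were higher and 424 lower in IFNAR1sg, and 3741 were higher and 663 lower in SCR. The split was more even in a fit that changed test and scaling together. With DESeq2's Wald test and size factors taken from the sums themselves, which put the median change at 0.08 in both genotypes, 1437 sums were higher and 1159 lower in IFNAR1sg and 1562 were higher and 1180 lower in SCR. On that scale the changes after MPS1i, in IFNAR1sg and then SCR, were 3.85 and 3.49 for the RGS12 antisense row, 2.59 and 2.13 for COX6C, and 2.07 and 1.84 for SQSTM1. They were 1.44 and 1.46 for LY6E and 0.85 and 0.72 for C6orf62. The order of the 5 loci by size, in these 20-kb sums, was the same on both scales. Sums higher in both genotypes, which share no control libraries, numbered 3918, or 58.6% of the IFNAR1sg calls and 75.8% of the SCR calls.

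IFNb changed few downstream sums in the IFNAR1 knockout: 108 of 18751 (0.576%) were higher and 21 (0.112%) lower in IFNAR1sg. In SCR 3903 (20.8%) were higher and 1430 (7.63%) lower, and with the Wald test 1672 were higher and 1747 lower.

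**Figure D3:**
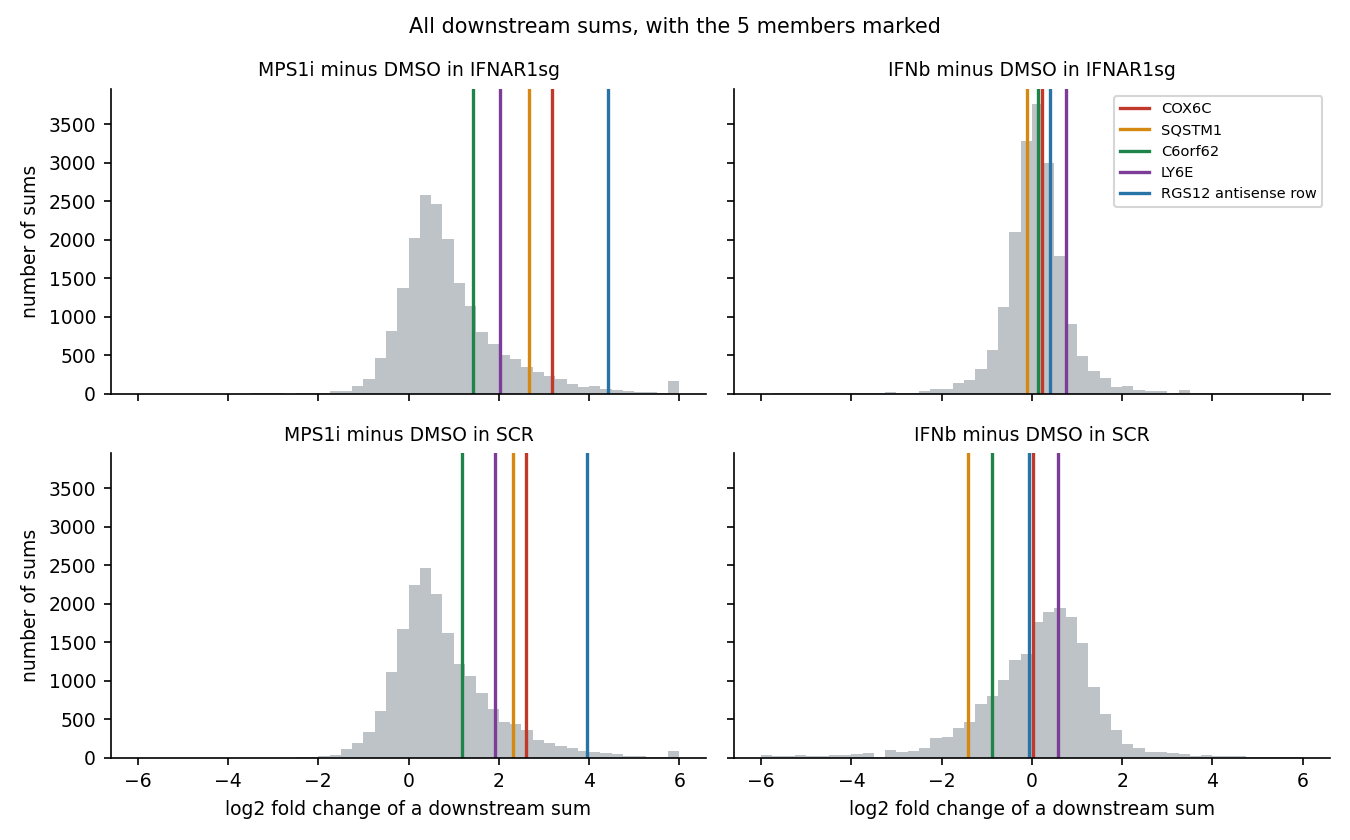
Number of downstream sums at each log2 change after MPS1i in IFNAR1sg and in SCR cells (18751 sums, values beyond 6 drawn in the end bins), with lines at the 5 loci. After MPS1i all 5 loci lie right of the medians of all sums, 0.67 in IFNAR1sg and 0.56 in SCR, with the RGS12 antisense row farthest out. These values chose the loci, so nothing is read from their place.

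Between genotypes no locus passed the test. The difference itself was not used to choose the loci. The choice asked for a rise in both genotypes, in these same libraries, so these tests are not independent of it. After MPS1i the log2 difference, IFNAR1sg minus SCR, was 0.36 ± 0.18 for COX6C, 0.13 for SQSTM1, 0.12 for C6orf62, -0.11 for LY6E and 0.17 for the RGS12 antisense row, with adjusted p of 0.82 to 1.00 in edgeR's quasi-likelihood test. The COX6C row had an unadjusted p of 0.060 in that fit, and both IFNAR1sg libraries were above both SCR libraries. In DMSO the difference was -0.12 to -0.30, with adjusted p of 0.79 to 0.95. Over all sums 67 of 18751 (0.357%) differed by genotype after MPS1i and 2 (0.0107%) in DMSO. With 2 libraries per group these tests do not show that the genotypes were alike.

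The bodies of COX6C, SQSTM1, C6orf62 and RGS12 changed less after MPS1i than the RNA past or opposite them. A gene-body sum here counts rows on the strand of that gene alone that share no exon base, so it is mostly intronic. Over 14348 such sums, 27.0% were higher and 19.7% lower after MPS1i in IFNAR1sg, and 22.3% higher and 21.9% lower in SCR. The COX6C body averaged 19.9 CPM in IFNAR1sg MPS1i, 14.7 in SCR MPS1i, 10.4 in IFNAR1sg DMSO and 9.59 in SCR DMSO. It rose by 0.91 ± 0.25 in IFNAR1sg (edgeR quasi-likelihood test, adjusted p = 0.0012) and 0.64 ± 0.27 in SCR (adjusted p = 0.040), and the IFNAR1sg call was lost without IFNAR1sg DMSO replicate 1 (0.65). The SCR call was lost with DESeq2's size factors (adjusted p = 0.058), without SCR DMSO replicate 2 (0.50) and without SCR MPS1i replicate 2 (0.16). All 8 annotated coding COX6C transcripts end at least 4666 bp before the gene end. The 3 rows inside COX6C past those coding ends averaged 12.9 CPM in IFNAR1sg MPS1i, 8.18 in SCR MPS1i, 4.39 in IFNAR1sg DMSO and 3.96 in SCR DMSO. The 35 rows before them averaged 6.99, 6.62, 5.98 and 5.71 CPM in the same groups, a smaller gap. The rise of the COX6C body thus lay mostly past the coding ends, on the side of the row that chose the locus, and says little of the rest of the gene.

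The SQSTM1 body averaged 97.9 CPM in IFNAR1sg MPS1i, 94.1 in SCR MPS1i, 121 in IFNAR1sg DMSO and 112 in SCR DMSO. It fell by 0.31 ± 0.12 on the log2 scale in IFNAR1sg (edgeR, adjusted p = 0.021) and gave -0.25 ± 0.12 in SCR (adjusted p = 0.082). The first was lost without replicate 2 of IFNAR1sg DMSO (-0.23) or of IFNAR1sg MPS1i (-0.25), and the second passed without SCR DMSO replicate 1 (-0.38). The downstream RNA was thus higher where the intronic reads of the gene were not. The direction of the body depended on whether exon-sharing rows were counted. A row of 1202 bp that shares 1 base with an SQSTM1 exon held 192914 of the 201776 reads inside the gene, and with such exon-sharing rows kept the sum was higher by 0.41 in IFNAR1sg (edgeR, adjusted p = 0.00065) and 0.64 in SCR (adjusted p = 6.9e-07). Both are below the change past the gene end, and 27.3% of 15469 such sums were higher in IFNAR1sg and 24.7% in SCR.

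The C6orf62 body averaged 121 CPM in IFNAR1sg MPS1i, 147 in SCR MPS1i, 99.3 in IFNAR1sg DMSO and 103 in SCR DMSO. It rose by 0.29 ± 0.11 in IFNAR1sg (edgeR, adjusted p = 0.027) and 0.51 ± 0.11 in SCR (adjusted p = 7.3e-05). The IFNAR1sg call was lost with DESeq2's size factors (edgeR, adjusted p = 0.084) and without replicate 2 of IFNAR1sg DMSO (0.26) or of IFNAR1sg MPS1i (0.25). RGS12 in its own sense averaged 61.5 CPM in IFNAR1sg MPS1i, 51.7 in SCR MPS1i, 44.7 in IFNAR1sg DMSO and 45.2 in SCR DMSO. It rose by 0.46 ± 0.14 in IFNAR1sg (edgeR, adjusted p = 0.0049, and 0.061 without IFNAR1sg DMSO replicate 2), while the SCR value of 0.19 ± 0.15 did not pass (adjusted p = 0.31).

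LY6E had too few reads free of exon bases for a fold: 10 and 10 in IFNAR1sg MPS1i, 6 and 7 in SCR MPS1i, 1 and 1 in IFNAR1sg DMSO, and 0 and 0 in SCR DMSO. With the exon-sharing row kept it had 55 and 79 reads in IFNAR1sg MPS1i, 45 and 50 in SCR MPS1i, 18 and 22 in IFNAR1sg IFNb, 31 and 27 in SCR IFNb, 4 and 8 in IFNAR1sg DMSO, and 6 and 3 in SCR DMSO. That sum rose by 3.32 ± 0.48 after MPS1i in IFNAR1sg (edgeR, adjusted p = 1.3e-08) and 3.89 ± 0.54 in SCR (adjusted p = 1.7e-09). After IFNb it rose by 3.71 ± 0.55 in SCR (edgeR, adjusted p = 6e-09), where 18.0% of such sums were higher. The IFNAR1sg value of 1.54 ± 0.52 after IFNb did not pass (edgeR, adjusted p = 0.095), and 1.34% of sums were higher there. Of the 348 reads inside LY6E, 291 lay in 1 exon-sharing row of 628 bp, past the ends of 13 of its 14 coding transcripts. That row averaged 9.62 CPM in IFNAR1sg MPS1i, 10.7 in SCR MPS1i, 0.891 in IFNAR1sg DMSO and 0.790 in SCR DMSO. The LY6E sum thus mostly counts RNA near the gene end. Its change was of the same order as that of the first downstream row and says little of the rest of the gene.

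After IFNb in SCR the 4 measured bodies moved in different directions. SQSTM1 fell by 1.00 ± 0.13 on the log2 scale (edgeR quasi-likelihood test, adjusted p = 7e-11) and COX6C fell by 0.88 ± 0.36 (adjusted p = 0.029), C6orf62 rose by 0.69 ± 0.11 (adjusted p = 1.2e-07), and RGS12 gave -0.07 (adjusted p = 0.74). The COX6C call was lost without SCR DMSO replicate 1 (-0.68), SCR IFNb replicate 1 (-1.09) or SCR IFNb replicate 2 (-0.69) and with the Wald test (-0.25), where RGS12 gave 0.55 (DESeq2, adjusted p = 0.0072). With no scaling factors RGS12 gave -0.40 (edgeR, adjusted p = 0.028), so its calls under these settings had opposite directions. Over all gene bodies 8.01% were higher and 39.3% lower in that comparison, with a median of -0.59, and with the Wald test 2267 were higher and 2058 lower. The SQSTM1 and COX6C falls had the direction of the edgeR median and were larger than it, and their distance from it was not tested. With exon-sharing rows kept the SQSTM1 value was 0.92. In IFNAR1sg none of the 4 bodies passed after IFNb, with values of -0.14 to -0.01, where 0.648% of bodies were higher and 0.648% lower.

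**Figure D4:**
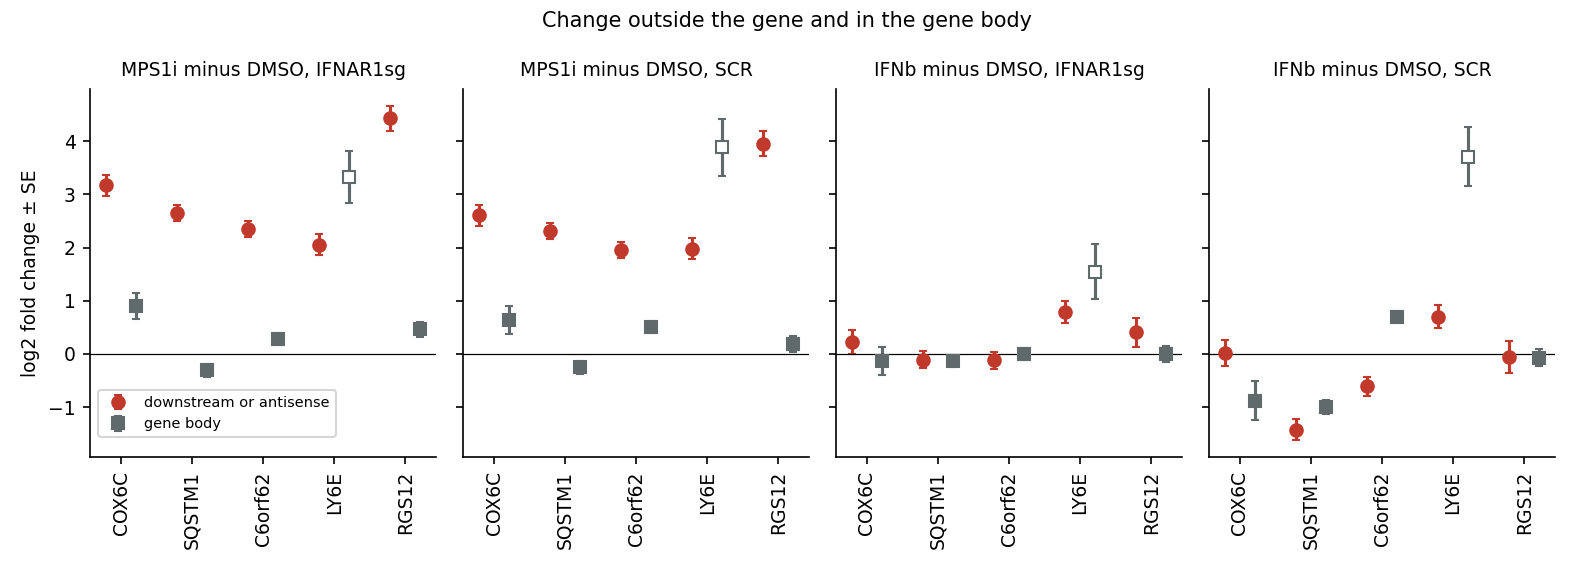
Log2 change after MPS1i and after IFNb in each genotype, with standard errors (n = 2 libraries per group), for all rows of the rule past or opposite each gene and for the gene body of each locus; the open square is LY6E with exon-sharing rows kept. After MPS1i the downstream changes lie above the gene bodies for COX6C, SQSTM1, C6orf62 and RGS12, and the 2 LY6E values do not show that order. The downstream changes are the values that chose the loci, so nothing is read from the order.

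Set against the body reads of the same library, the downstream RNA could be compared without any scaling between libraries. Per 100 exon-free body reads, COX6C had 477 and 455 downstream reads in IFNAR1sg MPS1i and 634 and 409 in SCR MPS1i. It had 153 and 104 in IFNAR1sg IFNb, 237.5 and 217 in SCR IFNb, 136 and 76.3 in IFNAR1sg DMSO, and 106 and 145 in SCR DMSO, all below the 4 MPS1i libraries. In SCR the IFNb libraries were also above DMSO, with a body that was lower after IFNb. SQSTM1 averaged 216 in IFNAR1sg MPS1i, 205 in SCR MPS1i, 28.1 in IFNAR1sg IFNb, 25.8 in SCR IFNb, 27.4 in IFNAR1sg DMSO and 34.7 in SCR DMSO. Its downstream RNA and its body were both lower after IFNb in SCR, so the ratio after IFNb was close to that in DMSO. For C6orf62 all 5 rows were counted, the row that reaches TDP2 among them. Its ratio averaged 184 in IFNAR1sg MPS1i, 124 in SCR MPS1i, 40.7 in IFNAR1sg IFNb and 18.7 in SCR IFNb. It averaged 44.1 in IFNAR1sg DMSO and 45.9 in SCR DMSO. Without the TDP2 row the rise was smaller. The rows left held 125 and 118 reads beside 675 and 751 body reads in IFNAR1sg MPS1i, and 31 and 52 beside 458 and 607 in IFNAR1sg DMSO. In SCR they held 60 and 90 beside 479 and 676 after MPS1i, and 41 and 51 beside 630 and 520 in DMSO. Per 100 sense reads of the same interval, the RGS12 antisense row had 244 and 227 reads in IFNAR1sg MPS1i, 248 and 233 in SCR MPS1i, 15.4 and 14.5 in IFNAR1sg DMSO, and 13.9 and 19.5 in SCR DMSO. After MPS1i the antisense strand thus held more reads than the sense strand of that interval, and in DMSO it held fewer. The downstream and antisense reads in these ratios are the values that chose the loci, so the rise of the ratios is a description.

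Over the 8373 genes with both sums, the downstream change exceeded the body change by a median of 0.62 (log2) after MPS1i in IFNAR1sg and 0.60 in SCR, and was the larger in 74.1% and 71.9% of genes. After IFNb the median was 0.09 in IFNAR1sg and 0.64 in SCR, where the downstream change was the larger in 69.3% of genes, so a gap of this size was not seen with MPS1i alone. The gap was 2.97 in IFNAR1sg and 2.57 in SCR for SQSTM1 and 2.26 in IFNAR1sg and 1.97 in SCR for COX6C. For C6orf62, over the rows that touch no other gene of the strand, it was 1.14 in IFNAR1sg and 0.68 in SCR, close to the median gene in SCR. The downstream change in each of these gaps is the value that chose the loci. A gap above the median gene was thus favoured in advance, and nothing is read from it.

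**Figure D5:**
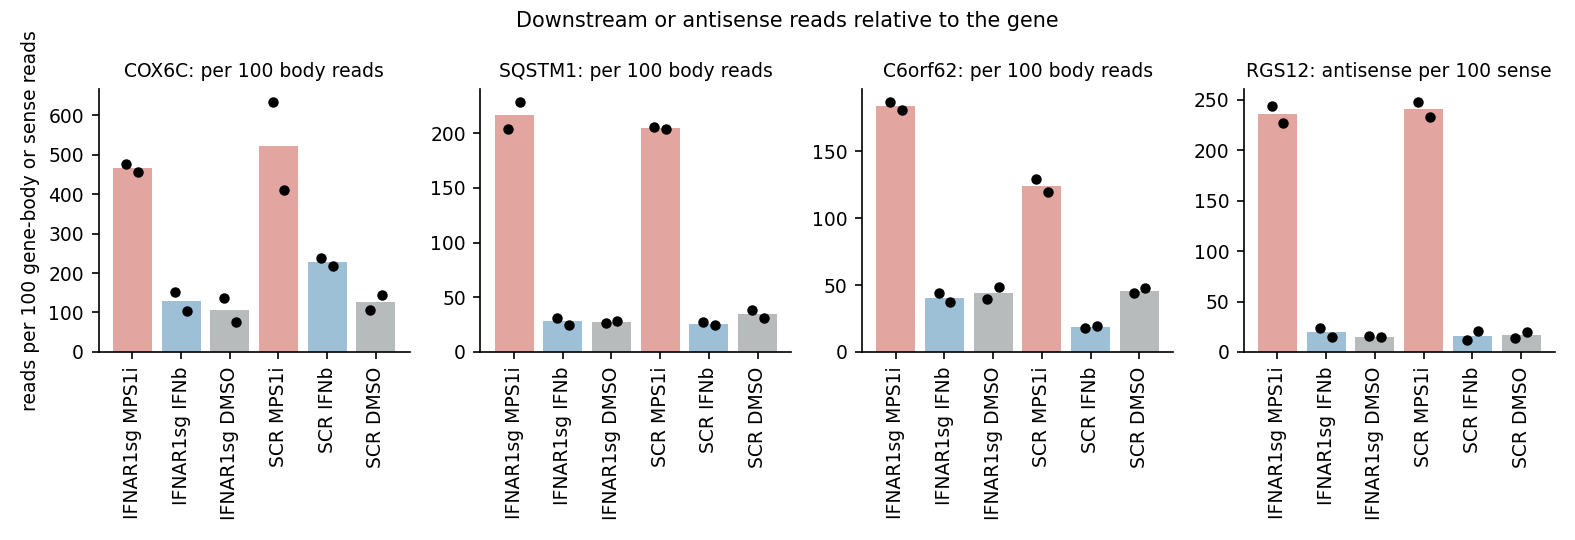
Downstream reads per 100 exon-free body reads for COX6C, SQSTM1 and C6orf62, and antisense reads per 100 sense reads of the same interval for RGS12, in each of the 12 libraries. C6orf62 counts include the row that reaches TDP2. The MPS1i libraries have the highest ratios at all 4 loci. The downstream or antisense reads in them are the values that chose the loci, so nothing is read from that order. LY6E is not drawn because 2 libraries have 0 body reads.

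The strand opposite the raised RNA was lower after MPS1i at COX6C and C6orf62, and it was lower still after IFNb in SCR. Opposite the COX6C row the reads averaged 34.8 CPM in IFNAR1sg MPS1i, 25.5 in SCR MPS1i, 61.96 in IFNAR1sg IFNb, 22.4 in SCR IFNb, 61.4 in IFNAR1sg DMSO and 56.2 in SCR DMSO. Most of that interval lies in VPS13B, a lipid transfer protein gene, whose body fell after MPS1i by 0.47 ± 0.10 on the log2 scale in IFNAR1sg (edgeR quasi-likelihood test, adjusted p = 1.8e-05) and by 0.79 ± 0.10 in SCR (adjusted p = 2.2e-11). After MPS1i the VPS13B body was higher in IFNAR1sg than in SCR by 0.36 ± 0.10 (edgeR, adjusted p = 0.0095), a comparison in which 5.58% of gene bodies were higher and 0.711% lower. Opposite the C6orf62 rows the reads averaged 13.2 CPM in IFNAR1sg MPS1i, 12.7 in SCR MPS1i, 25.9 in IFNAR1sg IFNb, 6.55 in SCR IFNb, 33.6 in IFNAR1sg DMSO and 33.9 in SCR DMSO. They lie over ACOT13, a thioesterase gene, whose body fell by 1.23 ± 0.20 in IFNAR1sg (edgeR, adjusted p = 1.4e-07) and by 1.42 ± 0.22 in SCR (adjusted p = 2.3e-08). After IFNb in SCR the VPS13B body fell by 1.42 (edgeR, adjusted p = 4.7e-25) and the ACOT13 body by 2.22 (adjusted p = 6.3e-13), where 39.3% of gene bodies were lower.

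Elsewhere the opposite strand changed little or rose after MPS1i. Opposite the SQSTM1 rows the reads averaged 8.19 CPM in IFNAR1sg MPS1i, 8.26 in SCR MPS1i, 7.60 in IFNAR1sg DMSO and 9.48 in SCR DMSO. They averaged 7.62 in IFNAR1sg IFNb and 3.37 in SCR IFNb. MRNIP, a DNA repair gene there, gave 0.07 after MPS1i in IFNAR1sg (edgeR, adjusted p = 0.89) and -0.36 in SCR (adjusted p = 0.42). After IFNb in SCR its body fell by 1.52 ± 0.47 (edgeR, adjusted p = 0.0024), where 39.3% of gene bodies were lower. That call was lost with the Wald test (-0.92) and without SCR IFNb replicate 1 (-0.97). Opposite the LY6E rows they averaged 7.48 CPM in IFNAR1sg MPS1i, 8.63 in SCR MPS1i, 1.79 in IFNAR1sg IFNb, 13.7 in SCR IFNb, 0.843 in IFNAR1sg DMSO and 0.970 in SCR DMSO. Both strands at LY6E were thus above DMSO after MPS1i. The sense strand opposite the RGS12 antisense row averaged 52.2 CPM in IFNAR1sg MPS1i, 45.5 in SCR MPS1i, 38.1 in IFNAR1sg DMSO and 42.5 in SCR DMSO.

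The loci differed in the repeats their rows carry. The rows held 9.72 Alu repeats per 10 kb past SQSTM1, 8.95 past LY6E and 4.72 past C6orf62, against 3.13 over all 27707 tested rows on no gene's strand. The COX6C row held 1.10 and the RGS12 antisense row 0.825, fewer than that average.

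The downstream RNA of other genes followed the 5 loci over the 12 libraries. By the Pearson correlation of log2 CPM over 18069 sums, which describes the shared group pattern and shares library depth, the sum most like COX6C was that past DUSP5, a nuclear ERK phosphatase (r = 0.992), followed by RBM4 (0.990) and PRAG1 (0.988). The DUSP5 sum changed by 2.86 in IFNAR1sg and 2.51 in SCR after MPS1i. SQSTM1 was closest to FOSL2, an AP-1 subunit (0.995), and to ENSG00000260633 and ENSG00000270210 (both 0.994), and the FOSL2 sum changed by 2.83 in IFNAR1sg and 2.43 in SCR. C6orf62 had MIR6827 (0.982) and RPL39P5 (0.980) beside ENSG00000272345, which shares its rows, and LY6E had C11orf24 (0.973), a Y_RNA gene (0.973) and BAK1 (0.972). The RGS12 antisense row was closest to the RNA past NSDHL, a cholesterol synthesis enzyme (0.992), TSPYL5 (0.991) and KRT79 (0.991), and the NSDHL sum changed by 4.04 in IFNAR1sg and 3.11 in SCR. Among the 5 loci r ran between 0.718, for C6orf62 with LY6E, and 0.984, for COX6C with the RGS12 antisense row.

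Genes that act at transcript ends were mostly lower or not called. Of 27 measured genes for cleavage, polyadenylation and termination, 2 rose and 14 fell after MPS1i in IFNAR1sg, and 2 rose and 16 fell in SCR, with list medians of -0.40 and -0.53 where the medians of all gene bodies were 0.16 and 0.07. After IFNb in SCR 0 rose and 17 fell, with a list median of -0.70 against -0.59 for all gene bodies, so the falls were not seen with MPS1i alone. Of all gene bodies 19.7% fell after MPS1i in IFNAR1sg, 21.9% in SCR, and 39.3% after IFNb in SCR. RPRD2, which binds the polymerase tail, fell by 1.18 ± 0.13 on the log2 scale in IFNAR1sg (edgeR quasi-likelihood test, adjusted p = 2.6e-13) and by 1.26 ± 0.14 in SCR (adjusted p = 1.8e-13). WDR33, which reads the poly(A) signal, fell by 0.50 in IFNAR1sg and 0.97 in SCR. PAPOLA, the poly(A) polymerase, fell by 0.99 in IFNAR1sg and 0.94 in SCR, and the anti-terminator SCAF4 fell by 0.43 in IFNAR1sg and 0.91 in SCR. With exon-sharing rows kept, RPRD2 in SCR (-0.19) and PAPOLA in IFNAR1sg (-0.21) and SCR (-0.092) no longer passed, and SCAF4 in IFNAR1sg was lost without replicate 2 of IFNAR1sg DMSO (-0.37) or of IFNAR1sg MPS1i (-0.31). These are intronic sums of J2-bound RNA and not levels of the mRNA or protein.

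Of 13 genes of the Integrator complex, which cleaves snRNA and other nascent RNA, 9 fell and 0 rose in IFNAR1sg, and 8 fell and 1 rose in SCR, with list medians of -0.66 and -0.65. Over all gene bodies 19.7% fell in IFNAR1sg and 21.9% in SCR, with medians of 0.16 and 0.07. After IFNb in SCR 9 fell and 1 rose, with a list median of -0.85. There 39.3% of all gene bodies were lower, with a median of -0.59, so these falls too were not seen with MPS1i alone. INTS2 fell by 1.17 in IFNAR1sg and 1.24 in SCR, INTS7 by 0.80 and 0.66, INTS9 by 0.53 and 0.90, and INTS8 by 0.61 and 0.78. INTS8 lost its call with exon-sharing rows kept (-0.17 in IFNAR1sg and 0.0055 in SCR), and INTS9 in IFNAR1sg lost it without IFNAR1sg DMSO replicate 2 (-0.45). Of 13 genes of the nuclear exosome and its adaptors, which degrade nuclear RNA, 2 rose and 3 fell in each genotype, near the shares of all bodies (27.0% higher and 19.7% lower in IFNAR1sg, 22.3% and 21.9% in SCR). EXOSC5 fell by 1.28 in IFNAR1sg and 0.83 in SCR, and the helicase MTREX by 0.39 and 0.50. The MTREX calls were lost without IFNAR1sg DMSO replicate 1 or IFNAR1sg MPS1i replicate 2 in IFNAR1sg (-0.33 and -0.32) and without SCR DMSO replicate 1 or SCR MPS1i replicate 2 in SCR (-0.34 and -0.45), and with exon-sharing rows kept SCR gave 0.13. The nuclease EXOSC10 rose by 0.50 in SCR and gave 0.09 in IFNAR1sg (adjusted p = 0.61, edgeR), and in SCR it no longer passed without DMSO replicate 2 (0.37) or MPS1i replicate 1 (0.35). The adaptor ZCCHC8 fell by 0.70 in SCR and gave -0.31 in IFNAR1sg (edgeR, adjusted p = 0.18), with the SCR call lost without SCR MPS1i replicate 2 (-0.55).

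Of 7 cytochrome c oxidase genes, COX6C alone rose and COX5A alone fell, the second by 1.12 in IFNAR1sg and 1.20 in SCR, while COX7A2 and COX7A2L did not pass. The COX6C rise lay mostly in rows past its coding transcript ends, beside the row that chose the locus, so nothing is read from it. Of 11 selective autophagy receptors, 5 rose and 2 fell in IFNAR1sg, and 4 rose and 0 fell in SCR. OPTN rose by 1.45 in both genotypes and the mitophagy receptor BNIP3L by 1.18 in IFNAR1sg and 1.17 in SCR. TAX1BP1 rose by 0.54 in IFNAR1sg and 0.33 in SCR, and NCOA4, the ferritin receptor, rose by 0.91 in SCR and gave 0.00 in IFNAR1sg (edgeR, adjusted p = 0.99). The SCR calls depended on single libraries: NCOA4 lost its own without SCR DMSO replicate 2 (0.84) or SCR MPS1i replicate 2 (0.95), and TAX1BP1 without SCR DMSO replicate 2 (0.22), SCR MPS1i replicate 1 (0.32) or SCR MPS1i replicate 2 (0.37). Of 12 RGS genes, 4 rose and 1 fell in IFNAR1sg, and 5 rose and 1 fell in SCR. These counts, those of the oxidase genes and those of the autophagy receptors are each from 12 genes or fewer, against the 27.0% of all bodies higher in IFNAR1sg and 22.3% in SCR, and nothing particular to a family is read from them. RGS2 rose by 1.81 ± 0.67 in IFNAR1sg and 4.01 ± 0.92 in SCR, RGS20 by 0.76 and 0.90, and RGS3 fell by 0.72 and 0.70. The RGS2 call in IFNAR1sg was lost without IFNAR1sg DMSO replicate 2 (1.45) or IFNAR1sg MPS1i replicate 1 (1.17). RGS9 rose by 1.23 in SCR and gave 0.50 in IFNAR1sg (edgeR, adjusted p = 0.18), which passed without IFNAR1sg MPS1i replicate 2 (0.81).

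Of the 13 LY6 genes of chromosome 8 listed, 3 were measured, LY6E among them. PSCA rose by 2.80 ± 0.42 in IFNAR1sg and 2.72 ± 0.39 in SCR (edgeR, adjusted p = 3.9e-10 and 3.7e-10), and GML rose by 1.95 in SCR and gave 0.69 in IFNAR1sg (adjusted p = 0.23), with the SCR call lost without SCR MPS1i replicate 2 (1.48). After MPS1i 35.6% of all downstream sums were higher and 1.48% lower in IFNAR1sg, and 27.6% were higher and 2.37% lower in SCR. Beside this, the sums were higher in 10 and lower in 0 of 19 cleavage and termination genes in IFNAR1sg, with a median of 1.03 where that of all sums was 0.67. In SCR 9 of these were higher and 0 lower. Of 6 LY6 genes, 6 were higher and 0 lower in IFNAR1sg, and 4 were higher and 0 lower in SCR. LY6E, chosen for its rise, is among those 6, so nothing is read from that count. In IFNAR1sg 4 were higher and 0 lower of 9 Integrator genes, and 4 higher and 1 lower of 12 exosome genes. In SCR these were 2 and 1 for Integrator, and 3 and 2 for the exosome. For the RGS genes they were higher in 5 and lower in 0 of 8 in IFNAR1sg and higher in 1 and lower in 0 in SCR.

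Of 20 interferon-stimulated genes, all 20 gene bodies rose after MPS1i in both genotypes, a share far above the 27.0% and 22.3% of all bodies. IFIT1, which binds foreign RNA, rose by 2.95 ± 0.22 in IFNAR1sg and 4.05 ± 0.20 in SCR, and RIGI by 2.11 ± 0.14 and 2.70 ± 0.13. The sensor IFIH1 rose by 1.79 ± 0.13 in IFNAR1sg and 2.73 ± 0.13 in SCR.

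Markers of other cell types moved with MPS1i as well. Of 9 fibroblast markers 7 had reads, mainly FAP with 404, while COL1A2 and PDGFRA had 0. Their summed level was 15.5 to 19.9 CPM in IFNAR1sg MPS1i, 17.6 to 20.3 in SCR MPS1i, 1.56 to 1.75 in IFNAR1sg DMSO and 1.16 to 2.50 in SCR DMSO. Of 9 immune markers 5 had exon-free reads, with MS4A1 at 0. Their exon-free sums were 4.91 to 7.24 CPM in IFNAR1sg MPS1i, 5.61 to 7.73 in SCR MPS1i, 0.445 to 1.27 in IFNAR1sg DMSO and 0.581 to 1.33 in SCR DMSO. With exon-sharing rows kept CD68 had 177 reads and CD14 had 22, and neither is in those sums. The part of all these markers in the changes past the 5 loci was not tested.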

How the data were processed

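The table deposited by the authors gives unnormalized read counts for each stranded row. STAR, featureCounts, HOMER, cutadapt, Trim Galore and Trimmomatic, with the builds GRCh38 and hg38, are named in the submitters' processing notes. No source used here says how multi-mapping reads were handled. Rows were placed on GENCODE release 29 genes, of whose 58735 identifiers 58207 were matched to a current symbol. Downstream sums held rows whose 5′ edge lay 1 to 20000 bp past a gene end on its strand, leaving out rows that overlap another gene of that strand, and the antisense row was added as 1 feature. Gene-body sums held rows on the strand of 1 gene that share no exon base.

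All 12 libraries were fitted with 1 coefficient per group in edgeR 4.0.16 (R 4.3.3), leaving 6 residual degrees of freedom, with quasi-likelihood F-tests and Benjamini-Hochberg adjustment over each table, called at 0.05. TMM factors came from the 89111 rows that passed filterByExpr (minimum total 15). The scripts were tested on simulated counts. DESeq2 1.42.0 and the other alternatives are in the closing section. The labels do not say that libraries of a group came from separate cultures, so p-values measure the spread between these libraries. Counting error is larger for low rows, and depth limits them.

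The 5 loci, the gene lists and the naming rule were chosen with earlier results of these data known. By that rule the text names the 5 loci, the genes overlapping or next to their rows, the 3 downstream sums most correlated with each locus, and up to 4 genes per list with the smallest p after MPS1i in SCR; 1 gene so chosen is not reported here. No genome sequence was used here, so no sequence past a gene end is shown.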

Additional observations from a re-analysis of the deposited data

Results flagged for a closer look

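The gene-body change after IFNb differed between the genotypes for SQSTM1, C6orf62 and the genes opposite the raised RNA, by the interaction term of edgeR's quasi-likelihood fit (change in IFNAR1sg minus change in SCR, log2). It was 0.87 ± 0.18 (SE) for SQSTM1 (edgeR, adjusted p = 2.6e-05) and -0.70 ± 0.16 for C6orf62 (adjusted p = 0.00022). For the opposite genes it was 1.93 ± 0.35 for ACOT13 (edgeR, adjusted p = 6.2e-07), 1.34 ± 0.14 for VPS13B (adjusted p = 1.8e-14) and 1.45 ± 0.59 for MRNIP (adjusted p = 0.038). All 5 rest on the SCR IFNb libraries, which differ from the others in makeup. With exon-sharing rows kept the SQSTM1 value turned to -0.38, in step with the turn of its gene-body change. COX6C and RGS12 did not pass this test.

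After MPS1i the interaction did not pass for the gene body of any of the 5 loci that could be measured. It passed for 2 of the interferon-stimulated genes named, whose rise was smaller in IFNAR1sg than in SCR. The value was -1.10 ± 0.29 for IFIT1 (edgeR, adjusted p = 0.026) and -0.94 ± 0.18 for IFIH1 (adjusted p = 0.00027).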

How the results depend on the processing

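After MPS1i the change past each of the 4 genes, and of the row opposite RGS12, stayed above 0 in both genotypes under every alternative tried. The replicate numbers did not pair the libraries: over 15 pairs of groups the correlation of same-numbered deviations was -0.054 to 0.085, with 0 over 0.1. With a replicate block, 10 downstream sums differed by genotype in DMSO in place of 2, and the COX6C gene-body call in SCR was lost (adjusted p = 0.051).

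Counts of calls moved by over 1.5 times as follows. With DESeq2's Wald test, downstream calls were 2596 after MPS1i in IFNAR1sg, 2742 in SCR, 218 after IFNb in IFNAR1sg, 3419 in SCR and 23 by genotype in DMSO, and gene-body calls were 4325 after IFNb in SCR and 420 by genotype after MPS1i. The cause was not tested beyond the median shift given for the size factors. With no filter, downstream calls were 200 after IFNb in IFNAR1sg and 75 by genotype in DMSO. Without both SCR IFNb libraries they were 50 after IFNb in IFNAR1sg and 0 by genotype in DMSO. With rows of other genes kept they were 8489 after MPS1i in SCR, 261 after IFNb in IFNAR1sg, 9339 in SCR and 151 by genotype after MPS1i. A window of 5 kb, which holds fewer rows, gave 3131 after MPS1i in IFNAR1sg, 2574 in SCR, 85 after IFNb in IFNAR1sg, 3313 in SCR, 44 by genotype after MPS1i and 0 in DMSO. A window of 50 kb gave 11972 after MPS1i in IFNAR1sg, 9629 in SCR, 213 after IFNb in IFNAR1sg and 117 by genotype after MPS1i. With exon-sharing rows kept, 286 gene bodies were called after IFNb in IFNAR1sg.

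Leaving out 1 library at a time gave 3724 to 8033 downstream calls after MPS1i in IFNAR1sg and 3389 to 5865 in SCR, 20 to 333 after IFNb in IFNAR1sg and 3149 to 5535 in SCR, and by genotype 17 to 96 after MPS1i and 0 to 458 in DMSO. For gene bodies it gave 78 to 221 after IFNb in IFNAR1sg, and by genotype 395 to 1087 after MPS1i and 0 to 53 in DMSO.

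Some values turned sign, and the cause was not tested. With exon-sharing rows kept the SQSTM1 body gave 0.41 after MPS1i in IFNAR1sg, 0.64 in SCR, 0.53 after IFNb in IFNAR1sg and 0.92 in SCR, the C6orf62 body 0.23 after IFNb in IFNAR1sg, and after MPS1i in SCR INTS8 gave 0.0055 and MTREX 0.13. With the Wald test the values after IFNb were 0.056 for C6orf62 and 0.054 for RGS12 in IFNAR1sg and 0.55 for RGS12 in SCR, and NCOA4 gave -0.038 after MPS1i in IFNAR1sg. Without scaling factors MRNIP gave -0.059, EXOSC10 -0.035 and NCOA4 -0.13 in IFNAR1sg after MPS1i, and NCOA4 gave -0.041 with DESeq2's size factors and -0.0023 with the replicate block. Leaving out 1 library gave, after IFNb in IFNAR1sg, -0.018 to 0.058 for C6orf62, -0.43 to 0.30 for COX6C and -0.18 to 0.20 for RGS12, and -0.16 to 0.058 for RGS12 in SCR. After MPS1i it gave -0.50 to 0.14 for COX7A2, -0.019 to 0.22 for EXOSC10 and -0.29 to 0.27 for NCOA4 in IFNAR1sg, and -1.01 to 0.048 for MRNIP and -0.57 to 0.044 for COX7A2L in SCR. Downstream, the genotype difference was -0.37 to 0.12 for C6orf62 in DMSO, -0.54 to 0.13 for LY6E in DMSO and -0.30 to 0.063 for LY6E after MPS1i. In all, 2089 of the values of single features under an alternative kept direction and side, 40 moved, 48 turned sign, 6 gained and 49 lost a call. The LY6E gene body was not refitted, having 0 reads in a group.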
